A study of Mus musculus with 6 samples.

Results

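The 6 genes described here handle bile acids in the last segment of the small intestine, the ileum: Slc10a2, Fabp6, Slc51a, Slc51b, Nr1h4 and Fgf15. They were chosen by name, as the rows of the gene count table whose Ensembl identifier carries one of these symbols, and each symbol matched 1 of the 28564 rows. RNA was sequenced from epithelial cells sorted out of small intestinal crypts, taken from 13-week-old males: 3 wild-type samples (C57Bl/6) and 3 samples from Apln-/- mice, which lack the secreted peptide apelin. In both groups the sort kept live single cells with EpCAM and CD44 on the surface and without CD31 and CD45. The sources used here do not state how the Apln allele was made, its strain background or whether each sample is 1 mouse. They also do not state the segment of small intestine that went into each sample. The labels call the samples biological replicates, and p-values measure the spread between these samples.

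Bile acids are made in the liver, released into the gut to emulsify fat and taken back up in the ileum. Uptake from the lumen is by the sodium-coupled transporter SLC10A2, transit through the cell is with the binding protein FABP6, and export to the blood is by the paired subunits SLC51A and SLC51B. Inside the enterocyte bile acids activate the nuclear receptor FXR, encoded by Nr1h4. FXR raises Fabp6, Slc51a, Slc51b and Fgf15, and the FGF15 hormone travels to the liver and lowers bile acid synthesis. These genes are best known from absorptive cells of ileal villi, and the crypt holds the stem cells, dividing progeny and Paneth cells below them.

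Promoter sequences of 5 of the 6 genes were in the RefSeq table (GRCm38.p6); Fgf15 was not among them. The 250 bases before the annotated start site were searched on both strands for the inverted repeat bound by FXR, AGGTCA and TGACCT with 1 base between them. The motif reads the same on either strand. The 2 sequences shown are those of the carrier and of an export subunit, each in its gene's direction on the minus strand. Capitals mark the windows closest to the FXR repeat in Fabp6 (chr11:43601563-43601812), and Slc51b (chr9:65422774-65423023) is marked in the same way.
Fabp6: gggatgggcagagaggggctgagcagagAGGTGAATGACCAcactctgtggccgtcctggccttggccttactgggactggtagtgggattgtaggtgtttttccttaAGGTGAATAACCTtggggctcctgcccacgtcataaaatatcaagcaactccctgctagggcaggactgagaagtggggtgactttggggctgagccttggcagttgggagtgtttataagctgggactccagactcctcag
Slc51b: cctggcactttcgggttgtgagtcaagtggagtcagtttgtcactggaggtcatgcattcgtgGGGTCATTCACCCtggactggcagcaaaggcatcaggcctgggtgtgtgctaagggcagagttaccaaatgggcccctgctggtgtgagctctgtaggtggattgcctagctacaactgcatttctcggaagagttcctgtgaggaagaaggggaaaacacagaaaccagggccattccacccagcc

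Fabp6 had 2 windows with 2 mismatches among the 12 scored letters of the FXR repeat, AGGTGAATGACCA at -222 to -210 and AGGTGAATAACCT at -142 to -130, counted from the start site with -1 as the base before it. A match at least as close was present in 0.959% of the 32841 promoters searched. The closest window of Slc51b, GGGTCATTCACCC at -187 to -175, had 3 mismatches, as close as in 9.63% of promoters, and the same held for Slc51a. Slc10a2 and Nr1h4 had 4 mismatches at best, as close as in 50% of promoters. For Nr1h4 the window searched, chr10:89506659-89506908, lay inside the gene, which begins at 89533585 on the minus strand. The bases before position 89533585 were not searched. The window of Slc51b lay partly inside its gene, which begins at 65422955, and its marked match spans that position. The Slc10a2 window, chr8:5105288-5105537, also lay partly inside its gene, which begins at 5105351. The marked windows did not overlap one another. These matches describe the letters in the windows and show no binding.

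Library totals ran from 23046880 to 26513481 counts. The 5 most abundant entries took 70.7% to 75.3% of the counts of a wild-type library and 77.3% to 78.9% of an Apln-/- library. All other genes thus had 6037237 to 7616648 counts per wild-type library and 5144725 to 5623112 per Apln-/- library, without overlap of the groups. Levels are CPM, the counts of a gene relative to the library total, scaled between libraries by the trimmed mean of M-values (TMM). The TMM factors were 1.03 to 1.20 in wild type and 0.841 to 0.919 in Apln-/-. A count of 0 allows up to 3 counts, which is 0.0946 to 0.142 CPM per library and covers counting error only. Reads of Apln numbered 29, 7 and 5 in wild type and 0 in every Apln-/- library. Among the markers of crypt epithelium, Epcam was at 280 to 338 CPM, Cd44 at 51.3 to 68.1 CPM, Olfm4 at 521 to 1161 CPM and Lgr5 at 25.7 to 38.6 CPM. The summed level of 5 endothelial genes was 0.138 to 1.43 CPM, that of 7 immune genes 3.12 to 6.94 CPM and that of 7 stromal genes 1.58 to 34 CPM. The stromal sum was lowest in wild-type library 3 and highest in Apln-/- library 2. In the latter, Myh11 was at 10.8 CPM (0.505 to 0.938 elsewhere) and Acta2 at 6.78 CPM (0 to 1.37 elsewhere). Dcn had the highest mean level of the 7 stromal genes. It was at 14.6, 11.5 and 0.347 CPM in wild type and 4.69, 10.98 and 3.17 CPM in Apln-/-. Dcn and Col3a1 were thus also highest of their group in Apln-/- library 2. Col1a1 (0.646 to 0.756 CPM in Apln-/-) and Pdgfra (0.369 to 1.28 CPM) were instead lowest there. Col1a2 was highest of its group in Apln-/- library 3. The part of stromal RNA in the bile acid gene values was not tested. None of the 3 lists held a gene called by edgeR, with 0.05 as the threshold on the Benjamini-Hochberg adjusted p. Before adjustment, 1 of 5 immune and 2 of 7 stromal genes tested passed 0.05 by edgeR, beside 15.2% of all genes tested. They were Ptprc, lower in Apln-/-, and Acta2 and Myh11, higher in Apln-/-. The other 5 stromal genes had a negative log2 fold change. The DESeq2 Wald test called 0 in each list, beside 3.84% of all genes tested. The endothelial genes did not pass the count filter.

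The comparison asks whether bile acid genes of crypt cells differ when apelin is absent. None of the 6 genes was called, and in each of them the groups overlapped. The libraries of 1 genotype differed from one another by more than the genotypes did: Fabp6 spanned 8.46-fold among wild-type libraries, while its group means were 68.2 and 72.6 CPM. Wild-type library 3 and Apln-/- library 2 were the highest of their group in Slc10a2, Fabp6, Slc51a, Slc51b and Nr1h4. Over all 15122 genes tested, 0.172% were called (edgeR, adjusted p under 0.05), 0.112% higher and 0.0595% lower in Apln-/-, so 0 of 6 is near that background. At an unadjusted p under 0.05 there were also 0 of the 6, where 15.2% of all genes tested passed, and the DESeq2 Wald test called 0 of the 6 and 3.84% of all genes tested. Groups did not overlap in 0 of the 6 and in 20.9% of the genes tested.

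**Figure D1:**
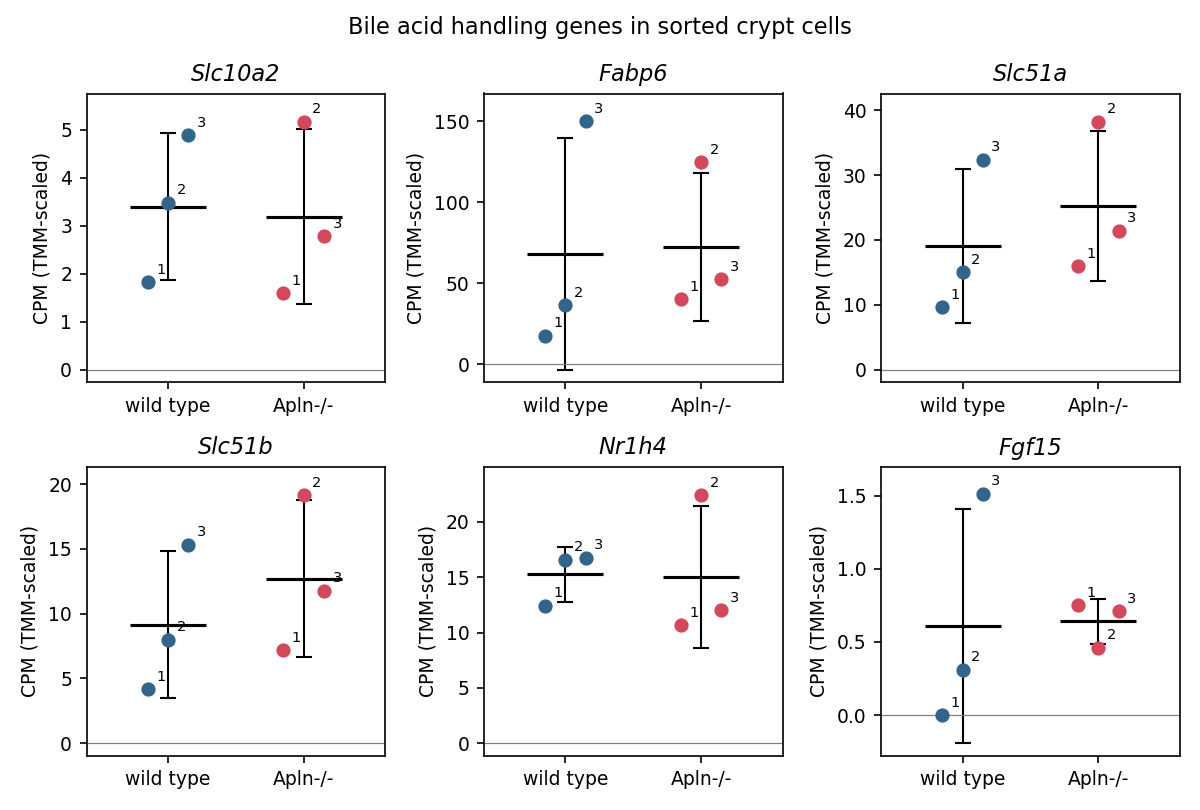
Level of each bile acid gene in CPM (TMM-scaled) on linear axes, with 1 point per library numbered by replicate, a wide line at the group mean and bars of 1 SD (n = 3), which reach below 0 where the SD exceeds the mean. Wild-type library 3 and Apln-/- library 2 are the highest points of their group in every panel except Fgf15, where Apln-/- library 2 is the lowest of its group at 0.461 CPM.

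Slc10a2 (ENSMUSG00000023073, chromosome 8, 5083219 to 5105351, minus strand of mm10), the uptake transporter, was at 1.83, 3.48 and 4.89 CPM in wild-type libraries 1, 2 and 3. In Apln-/- libraries 1, 2 and 3 it was at 1.59, 5.17 and 2.79 CPM. The lowest and the highest library were both Apln-/-, and 34 to 155 counts stood behind each value. The group means were 3.40 ± 1.53 and 3.18 ± 1.82 CPM (SD, n = 3 each), so that Apln-/- differed by -0.10 ± 0.45 (SE) on the log2 scale (edgeR adjusted p = 0.949).

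Fabp6 (ENSMUSG00000020405, chromosome 11, 43596049 to 43601540, minus strand), the carrier inside the cell, was the most abundant of the 6. It was at 17.7, 36.7 and 150 CPM in the wild-type libraries and at 40.1, 125 and 52.7 CPM in the Apln-/- libraries. All 3 Apln-/- values lay within the wild-type range. The means were 68.2 ± 71.6 and 72.6 ± 45.7 CPM (SD, n = 3 each), a log2 fold change of 0.09 ± 0.60 (SE; edgeR adjusted p = 0.966). The 95% interval of the difference ran from -1.22 to 1.39 on the log2 scale, so changes of 0.431-fold to 2.63-fold were not distinguished from none. Wild-type library 3 held 4760 of the 6272 wild-type counts. Without it the log2 fold change was 1.42 (edgeR adjusted p = 0.108), and without Apln-/- library 2 it was -0.55 (adjusted p = 0.812).

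Slc51a (ENSMUSG00000035699, chromosome 16, 32474504 to 32487879, minus strand) and Slc51b (ENSMUSG00000053862, chromosome 9, 65412714 to 65422955, minus strand) encode the subunits of the exporter on the side of the cell that faces the blood, and neither subunit works alone. Slc51a was at 9.60, 15.1 and 32.4 CPM in the wild-type and 16.0, 38.3 and 21.5 CPM in the Apln-/- libraries. Slc51b was at 4.17, 7.99 and 15.3 CPM in the wild-type and 7.17, 19.1 and 11.8 CPM in the Apln-/- libraries. Both genes were lowest in wild-type library 1 and highest in Apln-/- library 2, with the other libraries of each group in between. The Slc51a means were 19.0 ± 11.9 and 25.2 ± 11.6 CPM (SD, n = 3 each), a log2 fold change of 0.40 ± 0.39 (SE; edgeR adjusted p = 0.675, 95% interval -0.44 to 1.25). The Slc51b means were 9.16 ± 5.67 and 12.7 ± 6.04 CPM, a log2 fold change of 0.47 ± 0.42 (SE; edgeR adjusted p = 0.647, 95% interval -0.44 to 1.37). As for Fabp6, 1 library moved these values: without wild-type library 3 they were 1.034 for Slc51a and 1.062 for Slc51b (edgeR adjusted p = 0.123 and 0.163), and without Apln-/- library 2 they were -0.02 and 0.05 (0.992 and 0.983).

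Nr1h4 (ENSMUSG00000047638, chromosome 10, 89454234 to 89533585, minus strand), which encodes FXR, varied least. It was at 12.4, 16.6 and 16.8 CPM in the wild-type and 10.6, 22.4 and 12.1 CPM in the Apln-/- libraries. Apln-/- library 2 stood above all others and Apln-/- library 1 below them. The means were 15.3 ± 2.47 and 15 ± 6.43 CPM (SD, n = 3 each), a difference of -0.02 ± 0.26 (SE) on the log2 scale (edgeR adjusted p = 0.980). Its 95% interval, -0.60 to 0.55, was the narrowest of the 6. Without Apln-/- library 2 the log2 fold change was -0.42 (edgeR adjusted p = 0.529).

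Fgf15 (ENSMUSG00000031073, chromosome 7, 144896531 to 144900953, plus strand), the hormone that signals to the liver, was near the detection limit. Wild-type libraries 1, 2 and 3 held 0, 9 and 48 of its counts, and the Apln-/- libraries 16, 10 and 15. These are 0, 0.310 and 1.51 CPM and 0.750, 0.461 and 0.709 CPM. The wild-type libraries held both the lowest and the highest value, and the 3 Apln-/- libraries lay between them. The log2 fold change of 0.05 ± 1.00 (SE; edgeR adjusted p = 0.987) had a 95% interval from -2.12 to 2.23, which spans a 0.231-fold to a 4.67-fold level, so a difference within that range was not distinguished from none. Without wild-type library 3 the value was 1.98 (edgeR adjusted p = 0.360).

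**Figure D2:**
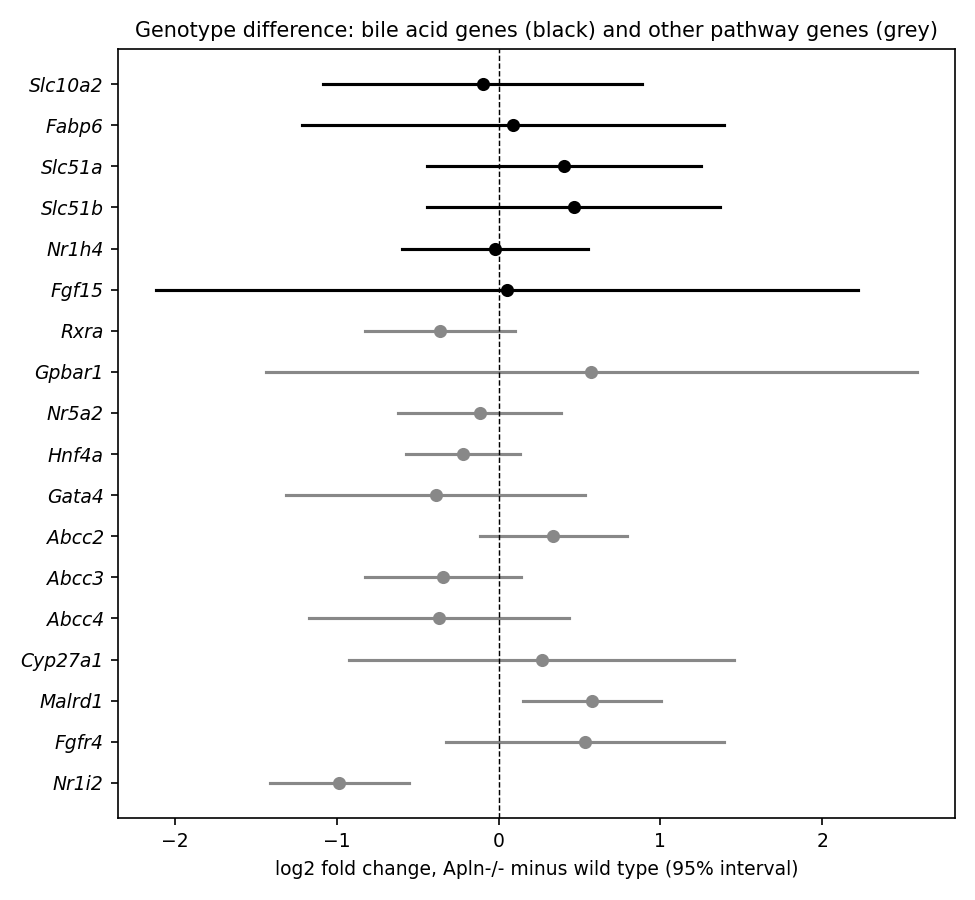
Log2 fold change of Apln-/- against wild type (x axis, edgeR) with its 95% interval, for the 6 bile acid genes in black and 12 other genes of the pathway in grey. All 6 black intervals cross 0, and that of Fgf15, from -2.12 to 2.23, is the widest of the 6.

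Levels of different genes were compared per kilobase of the longest annotated transcript. On this scale Fabp6 ranked first in all 6 libraries, with 142 ± 149 CPM per kilobase in wild type and 152 ± 95.4 in Apln-/- (SD, n = 3 each). Slc51b followed with 12.9 ± 8 and 17.9 ± 8.52 CPM per kilobase, then Slc51a with 7.27 ± 4.54 and 9.64 ± 4.43, and Nr1h4 with 7.58 ± 1.23 and 7.47 ± 3.20. The group means of these 3 lay within their spread, although Slc51b was above Slc51a in each of the 6 libraries. Nr1h4 stood above Slc51a in wild-type libraries 1 and 2 and below it in the other 4. In wild-type library 1 Nr1h4 was also above Slc51b (6.17 against 5.88 CPM per kilobase). Slc10a2, at 0.818 ± 0.369 and 0.767 ± 0.438 CPM per kilobase, and Fgf15, at 0.336 ± 0.442 and 0.354 ± 0.0863, were the lowest. Uptake transporter RNA was thus present at a lower level per length than RNA of the carrier in every library. The lowest Fabp6 value, 37.0 CPM per kilobase in wild-type library 1, was above the highest Slc10a2 value, 1.24 in Apln-/- library 2.

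Fabp6, Slc51a and Slc51b varied together from library to library. Over the 6 libraries the log2 levels of Slc51a and Slc51b had a Pearson's r of 0.988 (exact permutation p = 0.00278, adjusted p = 0.0278 over the 15 pairs of the 6 genes) and a Spearman's rho of 0.943 (exact permutation p = 0.0167, adjusted 0.0833). Fabp6 had an r of 0.980 with Slc51a (exact permutation p = 0.00417, adjusted 0.0278; rho 0.943, p = 0.0167, adjusted 0.0833). With Slc51b its r was 0.956 (exact permutation p = 0.00556, adjusted 0.0278; rho 0.886, p = 0.0333, adjusted 0.1). These 3 of the 15 pairs passed by r and 0 passed by rho. With the 2 libraries farthest from the median of the first gene left out, r was 0.964, 0.989 and 0.967 over the remaining 4. Computed on deviations from each genotype's mean, r was 0.987, 0.990 and 0.965. The points share whatever differs in composition between libraries, which was not tested.

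Slc10a2 and Nr1h4 formed the next closest pair, with an r of 0.904 (exact permutation p = 0.0153, adjusted 0.0573; rho 0.943, p = 0.0167, adjusted 0.0833) that did not pass. Nr1h4, the receptor gene, had an r of 0.658 with Fabp6 (exact permutation p = 0.163, adjusted 0.188; rho 0.486, p = 0.356, adjusted 0.444), and without the 2 farthest libraries r was -0.07. The 2 left out were wild-type library 3 and Apln-/- library 2, and the remaining libraries are too few to settle an r. Computed on deviations from each genotype's mean, the r of Nr1h4 and Fabp6 was 0.709. Nr1h4 and Fgf15 had an r of 0.150 (exact permutation p = 0.793, adjusted 0.793; rho -0.086, p = 0.919, adjusted 0.919). All 15 pairs had an r above 0.

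**Figure D3:**
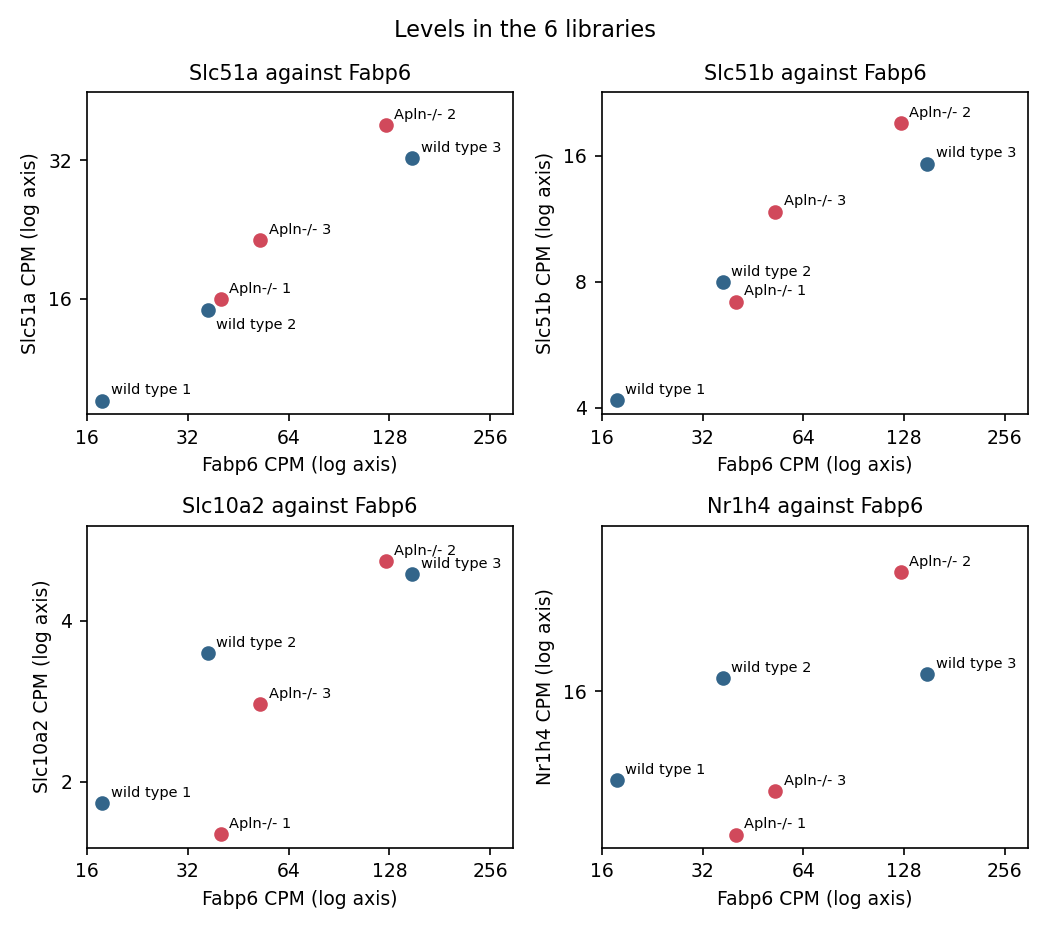
Level of Slc51a, Slc51b, Slc10a2 and Nr1h4 against that of Fabp6 in CPM, both axes logarithmic, with 1 point per library coloured by genotype. Slc51a and Slc51b rise with Fabp6 from wild-type library 1 at 17.7 CPM of Fabp6 to Apln-/- library 2 and wild-type library 3 at 125 and 150 CPM, and Nr1h4 follows it less closely.

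Ratios of counts within a library need no scaling between libraries. There were 1.82 to 2.30 counts of Slc51a for each count of Slc51b, a spread of 1.26-fold, while Slc51b itself spanned 4.60-fold over the 6 libraries. Slc51a made up 64.6% of the counts of the pair in Apln-/- library 3 (95% exact Clopper-Pearson interval 60.9% to 68.1%) and 69.7% in wild-type library 1 (64.6% to 74.5%). These lowest and highest shares had overlapping intervals, which cover counting error only. The ratio of Fabp6 to Slc51a was less even: it was 1.85, 2.43 and 4.63 in the wild-type and 2.51, 3.26 and 2.46 in the Apln-/- libraries. The ratio was highest in wild-type library 3 and next highest in Apln-/- library 2, the libraries with most Fabp6. The ratio of Fabp6 to Nr1h4 spanned 6.27-fold, from 1.43 in wild-type library 1 to 8.95 in wild-type library 3.

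The spread within genotypes was large for genes of these levels. The SD of Fabp6 within groups was 1.26 on the log2 CPM scale, above that of 99.7% of the 737 tested genes within 0.5 log2 units of its mean level. For Slc51a the SD was 0.77, above 99.8% of 1928 such genes, and for Slc51b 0.82, above 99.7% of 2631. Slc10a2 (0.77), Nr1h4 (0.44) and Fgf15 (1.55) exceeded 93.1%, 93.9% and 94.2% of the genes near their level. The median over all genes tested was 0.345.

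Exons of 3 of the genes overlap exons of neighbours on the other strand, and no source used here gives the strand setting of the counting. For Slc51b, 91 of 709 exon bases are shared with Rasl12, a small GTPase gene, which was at 1.27, 4.41 and 7.16 CPM in the wild-type and 2.77, 9.27 and 5.91 CPM in the Apln-/- libraries. Rasl12 was thus lowest and highest in the same libraries as Slc51b, and reads of the shared bases cannot be told apart. For Slc51a, 567 of 3198 exon bases are shared with Pcyt1a, which was at 8.93 to 19.4 CPM and highest in wild-type library 3. For Fgf15, 787 of 3058 are shared with Gm26793 and Gm39119, with 25 and 9 counts over all libraries against 98 of Fgf15. Fabp6, Slc10a2 and Nr1h4 share no exon bases with another gene.

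Markers of mature enterocytes were mixed in their order over the libraries. Krt20, a keratin of mature surface cells, was at 60.2, 53.2 and 115 CPM in the wild-type and 42.9, 88.1 and 49.2 CPM in the Apln-/- libraries. The sucrase gene Sis was at 97.8, 94.7 and 173 CPM and at 91.3, 191 and 120 CPM in the same order. Both were thus highest in the libraries that held most Fabp6. Of 18 villus enterocyte genes, 4, among them Sis, Slc5a1 and Krt20, were highest in wild-type library 3 and Apln-/- library 2 of their group. That order, looked for after the values were seen, held for 5 of the 6 bile acid genes and for 13.1% of all genes tested. The lactase gene Lct was at 4.68, 6.13 and 1.96 CPM in the wild-type and 6.14, 6.18 and 3.54 CPM in the Apln-/- libraries, lowest of its group in wild-type library 3 and highest in Apln-/- library 2. The summed level of the list was 948 to 1138 CPM in wild type and 860 to 1254 CPM in Apln-/-, highest in the same 2 libraries.

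The 3 villus genes of highest mean level did not share this order. Anpep, a brush border aminopeptidase gene, was at 175, 286 and 244 CPM in the wild-type and 120, 216 and 143 CPM in the Apln-/- libraries. The apolipoprotein gene Apob, at 160 to 268 CPM, was highest in library 2 of each group. The fatty acid binding protein gene Fabp2, at 146 to 238 CPM, was highest in library 1 of each group. Of the 8 crypt genes, the stem cell genes Olfm4 (801, 825 and 521 CPM in wild type, 1161, 560 and 904 CPM in Apln-/-), Lgr5 (37.5, 35.5 and 26.1 CPM, then 38.6, 25.7 and 34.7 CPM) and a further stem cell gene, Smoc2 (27.9, 29.3 and 20.2 CPM, then 37.5, 23.9 and 34.7 CPM), were lowest of their group in the libraries in which Fabp6 was highest. The other 5 had other orders. Epcam, at 300, 280 and 303 CPM and then 292, 338 and 299 CPM, was highest in those libraries. Mki67, a gene of dividing cells, was at 312, 404 and 348 CPM and then 168, 234 and 202 CPM. Cd44 was highest of its group in wild-type library 3 (63.9 CPM) and lowest in Apln-/- library 2 (51.3 CPM). Ascl2 and the Paneth cell gene Lyz1 were lowest in library 2 of both groups. Between genotypes, 0 of the 8 crypt genes were called by edgeR and 1 by the DESeq2 Wald test (3.84% of all genes tested). At an unadjusted edgeR p under 0.05, 1 was higher and 1 lower in Apln-/-, beside 15.2% of all genes tested. Groups did not overlap in 2 of the 8, Lyz1 (468 ± 107 and 1068 ± 476 CPM) and Mki67, beside 20.9% of all genes tested. In sorted bulk cells, a different share of mature cells and a different level per cell cannot be told apart. The part of these markers in the bile acid gene differences was not tested.

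Markers of intestinal region gave no single order. Gata4, a transcription factor of the proximal small intestine that keeps bile acid genes low there, was at 8.85, 26.8 and 5.90 CPM in the wild-type and 9.52, 9.64 and 12.6 CPM in the Apln-/- libraries. It was lowest in wild-type library 3, where Fabp6 was highest, but wild-type library 1, with the least Fabp6, had less Gata4 than library 2. The other proximal genes of highest level were Apoa4 (2.69 to 15.2 CPM), Rbp2 (3.17 to 7.50 CPM) and Lct. On the distal side Pyy, a hormone gene of distal enteroendocrine cells, was at 60.0 to 85.5 CPM, Osr2 at 23.6 to 34.6 CPM and Nts at 14.8 to 38.9 CPM, each with Apln-/- library 3 as the highest of its group. Of 13 proximal, 10 distal and 18 villus genes tested, 0 were called by edgeR or by the DESeq2 Wald test. The numbers at an unadjusted edgeR p under 0.05 were 1, 2 and 3, beside 15.2% of all genes tested. Median log2 fold changes were -0.28, -0.24 and 0.07, beside -0.01 for all genes tested. The share of ileum in each sample was not measured, and its part in these values was not tested.

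**Figure D4:**
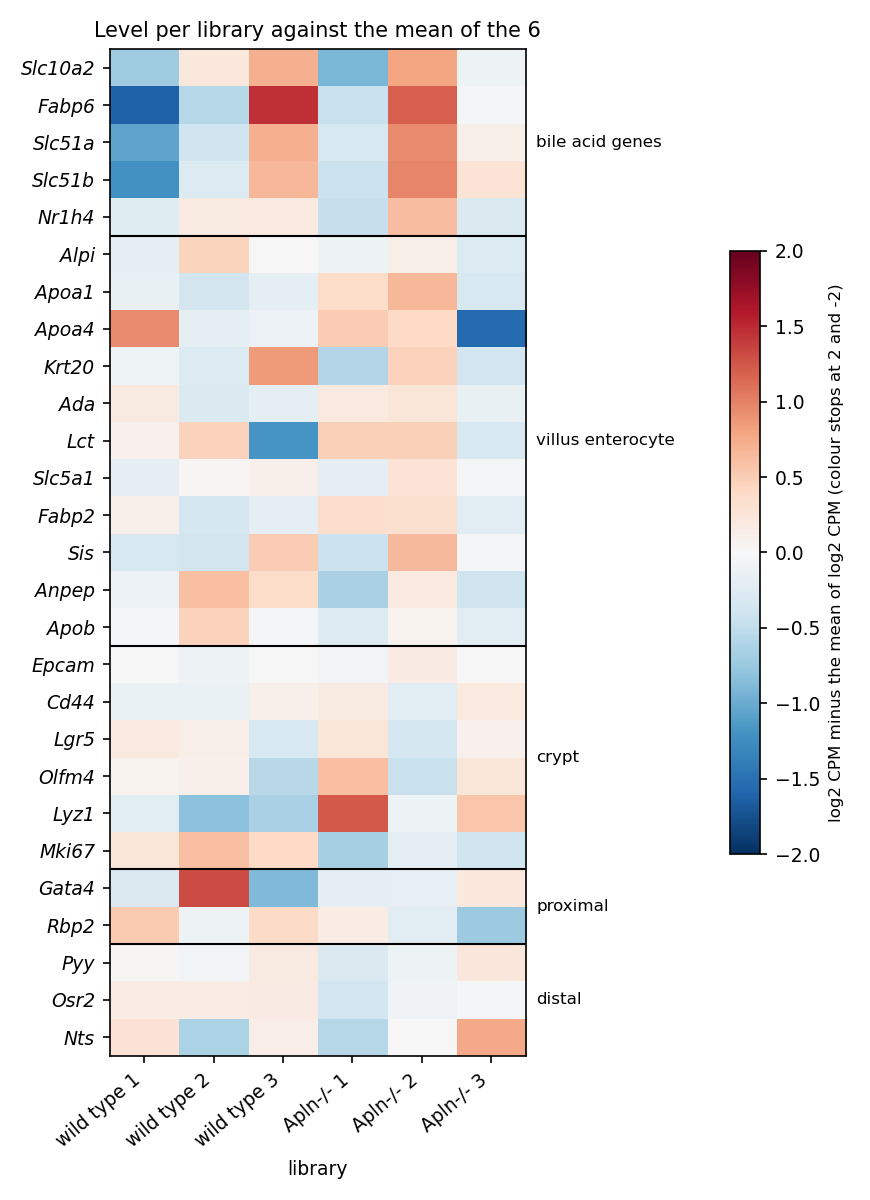
Colour shows the log2 CPM of each gene in each library minus its mean over the 6 libraries, for 5 bile acid genes and for markers of villus enterocytes, crypt cells and intestinal region. Fabp6, Slc51a, Slc51b and Slc10a2 are red in wild-type library 3 and Apln-/- library 2, where Krt20 and Sis are also red and Olfm4 and Lgr5 are blue.

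Beyond the 6 genes, 38 genes of bile acid sensing, transport, conversion and control were examined, of which 35 were in the table and 30 passed the count filter. Of these 0 rose and 0 fell by edgeR at an adjusted p under 0.05 (background 0.172%). The median log2 fold change was 0.00, and 2 of the 30 passed an unadjusted p under 0.05, a smaller share than the 15.2% of all genes tested. They were Nr1i2, which encodes the xenobiotic and bile acid receptor PXR, and Malrd1, whose protein raises FGF15 production in mice. Nr1i2 was at 12.0, 12.8 and 12.7 CPM in the wild-type and 7.17, 5.63 and 6.19 CPM in the Apln-/- libraries. The groups did not overlap, and the log2 fold change was -0.98 ± 0.20 (SE; edgeR adjusted p = 0.0575). The DESeq2 Wald test called this gene alone of the list, with an adjusted p of 0.00145, and the edgeR adjusted p was 0.00529 to 0.331 over the other alternatives.

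Malrd1 was at 42.7, 44.1 and 70.5 CPM in the wild-type and 88.0, 72.5 and 74.1 CPM in the Apln-/- libraries, also without overlap. Its log2 fold change was 0.58 ± 0.20 (SE; edgeR adjusted p = 0.200, and 0.0239 to 0.602 over the alternatives). Among the genes that control this set, Hnf4a, a transcription factor of enterocytes, was at 218 ± 33.4 and 187 ± 20.6 CPM (wild type and Apln-/-, SD, n = 3 each). Nr5a2, a nuclear receptor of crypts, was at 28.1 ± 9.35 and 25.9 ± 5.77 CPM. Rxra, the dimer partner of FXR, was at 21.7 ± 4.27 and 16.9 ± 3.95 CPM. The edgeR adjusted p of these 3 was 0.461 to 0.859.

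Nr0b2, a direct FXR target that encodes the repressor SHP, was listed at 0 in every wild-type library, and its counts in the Apln-/- libraries were 1, 2 and 2. No library was above the 3 counts that a 0 allows, so no fold is given. Gpbar1, the membrane bile acid receptor, had 29 and 31 counts in the 2 groups, and Klb, the FGF15 co-receptor, 21 and 20. Of other routes of bile acid export, Abcc3 on the blood side was at 24.0 ± 6.79 and 18.9 ± 3.07 CPM. Abcc2 on the lumen side was at 12.0 ± 2.03 and 15.2 ± 2.99 CPM, and Abcc4 at 3.74 ± 1.71 and 2.90 ± 0.637 CPM (SD, n = 3 each). Fgfr4, the FGF15 receptor, was at 1.85 ± 0.678 and 2.68 ± 0.567 CPM, and Cyp27a1, a sterol hydroxylase of bile acid synthesis, at 1.41 ± 0.503 and 1.69 ± 1.14 CPM. The edgeR adjusted p of these 5 tested genes was 0.483 to 0.868.

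Among genes of lowest p that followed Nr1i2 and Malrd1, the intestinal transcription factor gene Cdx2 was at 24.8, 18.8 and 10.1 CPM in the wild-type and 9.52, 12.2 and 13.8 CPM in the Apln-/- libraries. Gata6 was at 35.8 ± 2.45 and 29.1 ± 1.17 CPM, the vitamin D receptor gene Vdr at 135 ± 26.9 and 110 ± 5.23 CPM, and Abcg2 at 14.5 ± 4.25 and 19.4 ± 4.54 CPM. Cyp3a11 was at 0.637 ± 0.482 and 1.55 ± 0.682 CPM and Nr1h3 at 1.79 ± 0.427 and 2.87 ± 0.775 CPM. None of these 6 passed (edgeR adjusted p = 0.348 to 0.434).

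Of a list of 14 partners and cofactors of FXR, among them coactivators and corepressors, 13 were in the table and 12 were tested. Of these 9 had a negative log2 fold change, with a median of -0.33, and 0 were called by edgeR. At an unadjusted p under 0.05 there were 4, all lower (15.2% of all genes tested passed in either direction), among them Ncor1 (117 ± 10.9 and 78.0 ± 5.87 CPM), Ncoa2 (36.4 ± 3.93 and 24.6 ± 3.90) and Smarca4 (74.9 ± 6.62 and 57.9 ± 4.36; SD, n = 3 each). The edgeR adjusted p of the 4 was 0.0997 to 0.245. The DESeq2 Wald test called 2 of the 12, beside 3.84% of all genes tested.

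Across the 6 libraries, the tested genes whose log2 CPM was most like that of each bile acid gene were named without predicted genes, as a description. With 15121 candidates and 6 points, high values of r are common by selection. Closest to Fabp6 were Dcaf17 (r = 0.987), Xrcc1 (0.986) and Necap1 (0.983), and Slc51a ranked 9 among all tested genes. Closest to Slc51a were Sfn (0.994), Slc51b (0.988) and Atp6v0e (0.988), and closest to Slc51b were Slc51a (0.988), Enpep (0.985) and Rbm47 (0.982). The exporter subunits thus ranked 1 and 2 in each other's order. Enpep, which encodes a brush border aminopeptidase, was at 26.2, 33.0 and 44.9 CPM in the wild-type and 31.1, 54.8 and 39.3 CPM in the Apln-/- libraries. Closest to Slc10a2 were Mylk (0.996), Mis18a (0.982) and Tomm34 (0.978), and closest to Nr1h4 were Steap1 (0.983), Trappc6b (0.974) and Nadk (0.972).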

How the data were processed

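RNA from sorted crypt cells was amplified before library preparation, per the labels' protocols, and no molecular identifiers are named. The deposited values are raw read counts per Ensembl gene. The submitters' processing notes list STAR 2.6.1, HTSeq and the build mm10, and no source used here gives the strand setting. A symbol was matched for 28551 of 28564 identifiers. The 3 knockout columns were matched to replicates by the samples' descriptions. For Apln-/- libraries 2 and 3 the column header carries another number than the replicate, and library 2 is headed KO3. Genes were filtered with filterByExpr (15122 kept, 13442 removed). They were tested with edgeR 4.0.16 in R 4.3.3 (quasi-likelihood test, TMM scaling, Benjamini-Hochberg adjustment, threshold 0.05) and, as an alternative, with DESeq2 1.42.0. Correlations used log2 CPM with a prior count of 2. Intervals are at the 95% level. Those of fold changes cover the spread between samples, and those of shares, like the limit of a 0 count, cover counting error only. Gene positions and transcript lengths are from GENCODE for mm10.

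Named were the 6 genes, the 10 pathway genes of lowest p and a fixed set of receptors and exporters, the 4 region or villus genes of highest level per list, and the 3 genes most like each gene of at least 1 CPM. FXR cofactors, and villus genes named for their order, were chosen after their values were seen. Neighbours were named for overlapping exons. The members and lists were chosen with earlier results of these data known. A few genes that these rules would name are not reported here.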

Additional observations from a re-analysis of the deposited data

How the results depend on the processing

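None of the 6 bile acid genes was called under any of the alternatives run: other scalings, other filters, DESeq2, a length and GC correction, a replicate block and leaving out each library. Fgf15 was not tested under the filter of at least 1 CPM in 3 libraries, and DESeq2 gave it no adjusted p. Correcting for length and GC content reversed Fabp6 to -0.11 and Fgf15 to -0.10 on the log2 scale. Leaving out 1 library at a time, it ranged from -0.553 to 1.418 for Fabp6, -0.526 to 1.976 for Fgf15, -0.425 to 0.178 for Nr1h4, -0.632 to 0.264 for Slc10a2, -0.023 to 1.034 for Slc51a and 0.046 to 1.062 for Slc51b. The direction thus changed with a library left out for the first 5 and not for Slc51b.

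Over all genes, 26 were called, 17 higher and 9 lower. The count was 581 with the DESeq2 Wald test (300 higher, 281 lower), 629 without a filter (328 and 301) and 117 with the filter of at least 1 CPM (83 and 34). It was 1, lower in Apln-/-, with DESeq2 size factors, upper-quartile scaling, the length and GC correction, or without the 5 most abundant entries. Leaving out 1 library gave 0 to 358, with 358 without wild-type library 3. The pathway list had 0 called genes, against 1 with the DESeq2 Wald test, 1 with the filter of at least 1 CPM, 2 without a filter, and 0 to 2 leaving out 1 library, with 2 without wild-type library 3. The proximal median of -0.28 ranged from -0.464 without wild-type library 3 to -0.045 without Apln-/- library 3. The distal median of -0.24 ranged from -0.383 to 0.127, positive without wild-type library 3. The villus median of 0.07 ranged from -0.115 to 0.141, lowest without Apln-/- library 2. The cause was not tested.

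With the replicate number as a block, 173 genes were called (118 higher, 55 lower), and 27 with the block and the length and GC correction. Same-numbered libraries correlated at 0.0406, 0.0569 and 0.0109 in their deviations, and 5 of 6 libraries correlated best with their own number. The numbers are those of the replicates, which differ from the column headers for some Apln-/- libraries. Pairing by header number was not tested. These correlations are small and the labels name no pairs, so the main fit did not use the numbers to pair samples. Whether they mark pairs is not settled. With the block the log2 fold change was 0.53 for Fabp6 and 0.87 for Fgf15, and 0 of the 6 were called.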
